A study of Danio rerio with 31 samples.

Results

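The midbrains of adult zebrafish from Nadia, a wild population, were compared with those of Transgenic Mosaic 1, a domesticated population, on 4 arrays of each. These 8 arrays were taken by their labels from 31 in all. The Nadia arrays carry the codes M98 and M106 (males) and M7 and M130 (females). The Transgenic Mosaic 1 arrays are M63 and M99 (males) and M12 and M109 (females), and values of single arrays are given in these orders. All fish were 1 year old, were labelled as control and were arrayed singly, and no knockout, drug or other agent is named for either population. The labels call Transgenic Mosaic 1 domesticated and do not name a transgene. The study also arrayed a second wild population, Pargana North (Pargana in what follows), a second domesticated one, Scientific Hatchery, and the telencephalon of all 4 populations. Each value is the log2 hybridization signal of a gene. The fish within a population are separate animals, but the labels do not say how many families or tanks they came from.

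As background, the midbrain of fish holds the optic tectum, which receives most of the output of the retina, and the tegmentum beneath it, which contains motor and modulatory neurons. Domestication of fish acts on behaviour, growth and disease exposure, and populations bred apart also drift at loci that differ among wild fish, including the immune genes of the major histocompatibility complex (MHC). MHC class II molecules are pairs of an alpha and a beta chain that show peptides to helper T cells, and in brain they are made mainly by microglia and other antigen-presenting cells.

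Most of the regional genes checked matched the label of midbrain in both populations. The tectal and tegmental transcription factor gene GATA3 stood at 12.61 to 12.91 in Nadia and 12.78 to 12.84 in Transgenic Mosaic 1, against 5.91 to 7.83 on the telencephalon arrays. The forebrain gene emx3 stood at 5.52 to 5.88 in Nadia and 5.21 to 6.42 in Transgenic Mosaic 1, against 11.31 to 11.93 in telencephalon. Among the telencephalon genes foxg1b went the other way, at 8.45 to 9.62 in Nadia and 8.06 to 9.82 in Transgenic Mosaic 1, against 6.37 to 7.71. Among the midbrain genes otx2a overlapped, at 7.94 to 8.29 in Nadia and 7.90 to 8.53 in Transgenic Mosaic 1, against 6.62 to 8.45 in telencephalon. Genes of neighbouring tissue were present in both populations: the cerebellar granule cell gene GABRA6 reached 12.65 to 13.64 in Nadia and 12.80 to 13.71 in Transgenic Mosaic 1. A further gene with the symbol GABRA6 read 8.26 to 9.65 in Nadia and 8.52 to 9.23 in Transgenic Mosaic 1. The midbrain list averaged 10.60 to 10.87 in Nadia and 10.59 to 10.86 in Transgenic Mosaic 1, and none of its 29 measured members was called. One Nadia array stood apart in eye genes. The mean of the 25 measured retina, lens and pineal genes was 8.15 on M98, against 6.30 to 6.81 on the other Nadia arrays and 6.21 to 6.72 in Transgenic Mosaic 1. None of these 25 genes was called, and the part of such tissue in other results was not tested. Pairs of arrays correlated at 0.9793 to 0.985 within Nadia, at 0.9783 to 0.9882 within Transgenic Mosaic 1 and at 0.9719 to 0.98 between them.

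To ask which genes differ between the populations, each of 15648 genes was fitted with population and sex in limma, and a gene was called at an adjusted p under 0.05. In all, 157 genes were called (1.00% of those tested), of which 67 were higher in Nadia (0.428%) and 90 were lower (0.575%). The median size of the called differences was 1.26 on the log2 scale, against 0.16 over all genes, and the median of the signed differences over all genes was 0.00. Of the called genes, 104 differed at least 2-fold, 36 at least 4-fold and 17 at least 8-fold, and 126 (80.3%) lay below the median level of all genes. The 4 Nadia and 4 Transgenic Mosaic 1 values did not overlap for 152 of the 157, where 8.56% of all genes did not overlap. The count changed with the arrays fitted. It was 107 without Nadia M98, 91 without M106, 97 without M7 and 101 without M130. It was 44 without Transgenic Mosaic 1 M12, 72 without M109 and 85 without M63.

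**Figure D1:**
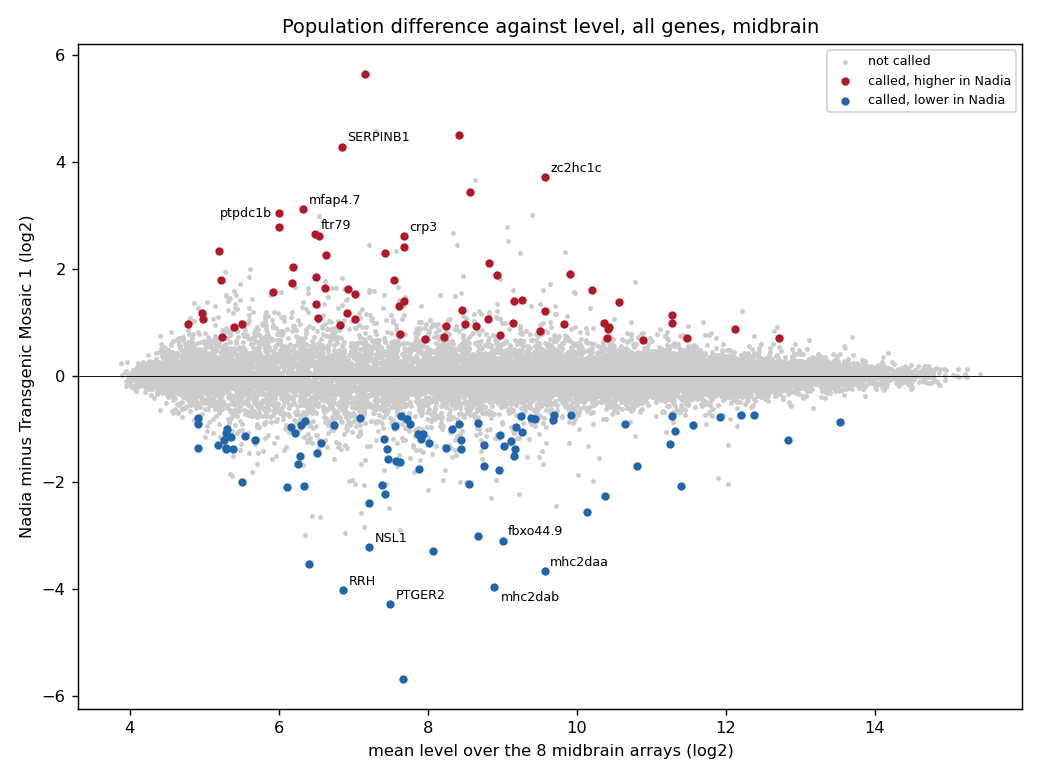
Difference of Nadia minus Transgenic Mosaic 1 (log2, vertical) against the mean level over the 8 midbrain arrays (log2, horizontal) for all 15648 genes, 1 point each. Coloured points are the 157 called genes, red for the 67 higher and blue for the 90 lower in Nadia; most lie at low to middle levels, and the names mark the largest named differences.

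Several of the largest differences were in genes of immune defence, and they ran in both directions. An alpha and a beta chain gene of MHC class II were lower in Nadia. Of the innate response, the pentraxin crp3 and the fibrinogen-domain gene mfap4.7 were higher. The complement component c3b.1 was higher too, by a smaller 1.30. In brain tissue a lower level of such a gene from fewer cells that make it and from less RNA per cell cannot be told apart. The values are hybridization signals, and sequence differences between the populations under the probes were not examined. The very largest differences were in genes with no symbol or a clone name: ENSDARG00000069936 differed by -5.68, si:dkey-19a16.7 by 5.65 and ENSDARG00000079272 by 4.50, and they were singled out after their values were seen.

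The MHC class II beta chain gene mhc2dab (ENSDARG00000079105) read 6.78, 6.36, 6.26 and 8.24 in Nadia, against 10.80, 10.11, 11.34 and 11.22 in Transgenic Mosaic 1. All 4 Nadia fish lay below all 4 Transgenic Mosaic 1 fish, a difference of -3.96 ± 0.39 (SE; limma adjusted p = 0.00596). The alpha chain gene mhc2daa (ENSDARG00000031745) read 8.09, 6.80, 8.11 and 7.94 in Nadia, against 11.34, 10.54, 11.87 and 11.86 in Transgenic Mosaic 1, a difference of -3.67 ± 0.29 (limma adjusted p = 0.00241). Pargana and Scientific Hatchery were at the high level too. There mhc2dab was 10.61 to 12.26 in Pargana and 10.63 to 11.52 in Scientific Hatchery, and Nadia stood below all 12 other midbrain arrays for both genes. Other genes of the same pathway, looked up after these values were seen, were not called. The invariant chain genes cd74a and cd74b, which escort class II molecules, differed by 0.07 and 0.09. Another beta chain gene, mhc2dbb, differed by 0.00, and ciita, which switches class II genes on in mammals, by -0.46. Of the 42 measured genes of the MHC and interferon list, mhc2daa and mhc2dab were the only ones called (1.00% of all genes were). The list's median difference was 0.05. In that list 3 genes were higher in Nadia without overlap (4.05% of all genes were) and 4 were lower (4.51%). The means of the 21 microglia and leukocyte genes were 7.82 to 8.22 in Nadia and 7.90 to 8.12 in Transgenic Mosaic 1, and none was called. Among them the macrophage receptor gene csf1rb differed by -0.02 and the myeloid factor SPI1 by 0.55 (limma adjusted p = 0.153). In this list 3 genes, SPI1 included, were higher in Nadia without overlap (4.05% of all genes were) and none was lower (4.51%).

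Among the 29 measured acute phase and complement genes, 3 rose (0.428% of all genes were called higher) and none fell. In this list 5 genes were higher in Nadia without overlap (4.05% of all genes were) and none was lower, and the median difference was 0.10. The fibrinogen-domain gene mfap4.7 (ENSDARG00000092806) read 7.63, 7.47, 8.59 and 7.87 in Nadia, against 4.73, 5.05, 4.73 and 4.57 in Transgenic Mosaic 1, a difference of 3.12 ± 0.24 (limma adjusted p = 0.00209). It was low in Pargana (4.53 to 6.11) and in Scientific Hatchery (4.45 to 4.79) as well, so Nadia alone was high. The pentraxin gene crp3 (ENSDARG00000042613), of the C-reactive protein family, read 8.98, 9.56, 8.78 and 8.61 in Nadia, against 6.83, 5.62, 6.30 and 6.75 in Transgenic Mosaic 1, a difference of 2.61 ± 0.31 (limma adjusted p = 0.0115). Both wild populations lay above both domesticated ones for crp3, which was 7.75 to 9.72 in Pargana and 4.89 to 7.69 in Scientific Hatchery. The difference of Pargana minus Scientific Hatchery, 2.85 ± 0.68, did not pass (limma adjusted p = 0.154). The complement gene c3b.1 differed by 1.30 ± 0.15 (limma adjusted p = 0.0115). Without Transgenic Mosaic 1 M12, crp3 and c3b.1 were no longer called (limma adjusted p = 0.0515 for each). The call on c3b.1 was also lost with all 16 midbrain arrays in the fit (limma adjusted p = 0.113) and with all 31 arrays (limma adjusted p = 0.0871). The mean of the whole list reached up to 7.21 in Nadia and was 6.64 to 6.78 in Transgenic Mosaic 1, and every Nadia array lay above every Transgenic Mosaic 1 array. That mean includes the 3 called genes, so its separation is not evidence apart from theirs.

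SERPINB1 (ENSDARG00000070396), an inhibitor of neutrophil proteases, had the largest difference of the named genes higher in Nadia. It read 9.02, 9.16, 9.33 and 8.45 in Nadia, against 4.71, 4.38, 4.51 and 5.20 in Transgenic Mosaic 1, a difference of 4.29 ± 0.25 (limma adjusted p = 0.000427). Pargana lay between (6.38 to 7.63), and Scientific Hatchery ran from 4.97 to 9.21. Of the 35 measured finTRIM and TRIM genes, a family of antiviral ubiquitin ligases much expanded in fish, ftr79 and ftr01 rose and ftr57 fell (1.00% of all genes were called), and the list's median difference was 0.02. ftr79 was 7.08 to 8.46 in Nadia and 4.88 to 5.54 in Transgenic Mosaic 1, and ftr57 was 5.90 to 7.24 in Nadia and 8.25 to 8.63 in Transgenic Mosaic 1, a difference of -2.05 ± 0.21 (limma adjusted p = 0.00659). The call on ftr79 was lost without Transgenic Mosaic 1 M12 (limma adjusted p = 0.0552) and without M109 (limma adjusted p = 0.0525). That on ftr01 was lost in 7 of the 8 fits that each left out 1 array and with no sex term (limma adjusted p = 0.102). The prostaglandin E2 receptor gene PTGER2 was 4.57 to 6.65 in Nadia and 9.08 to 10.05 in Transgenic Mosaic 1, a difference of -4.29 ± 0.42 (limma adjusted p = 0.00596). PTGER2 was 8.78 to 9.98 in Pargana and ran from 5.38 to 9.84 in Scientific Hatchery. Nephrosin, npsn, a metalloprotease of zebrafish neutrophils, differed between Nadia and Transgenic Mosaic 1 by -2.22 ± 0.28 (limma adjusted p = 0.0147). Its call was lost without Transgenic Mosaic 1 M63 (limma adjusted p = 0.0542), with all 16 midbrain arrays (limma adjusted p = 0.191) and with all 31 arrays (limma adjusted p = 0.151).

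**Figure D2:**
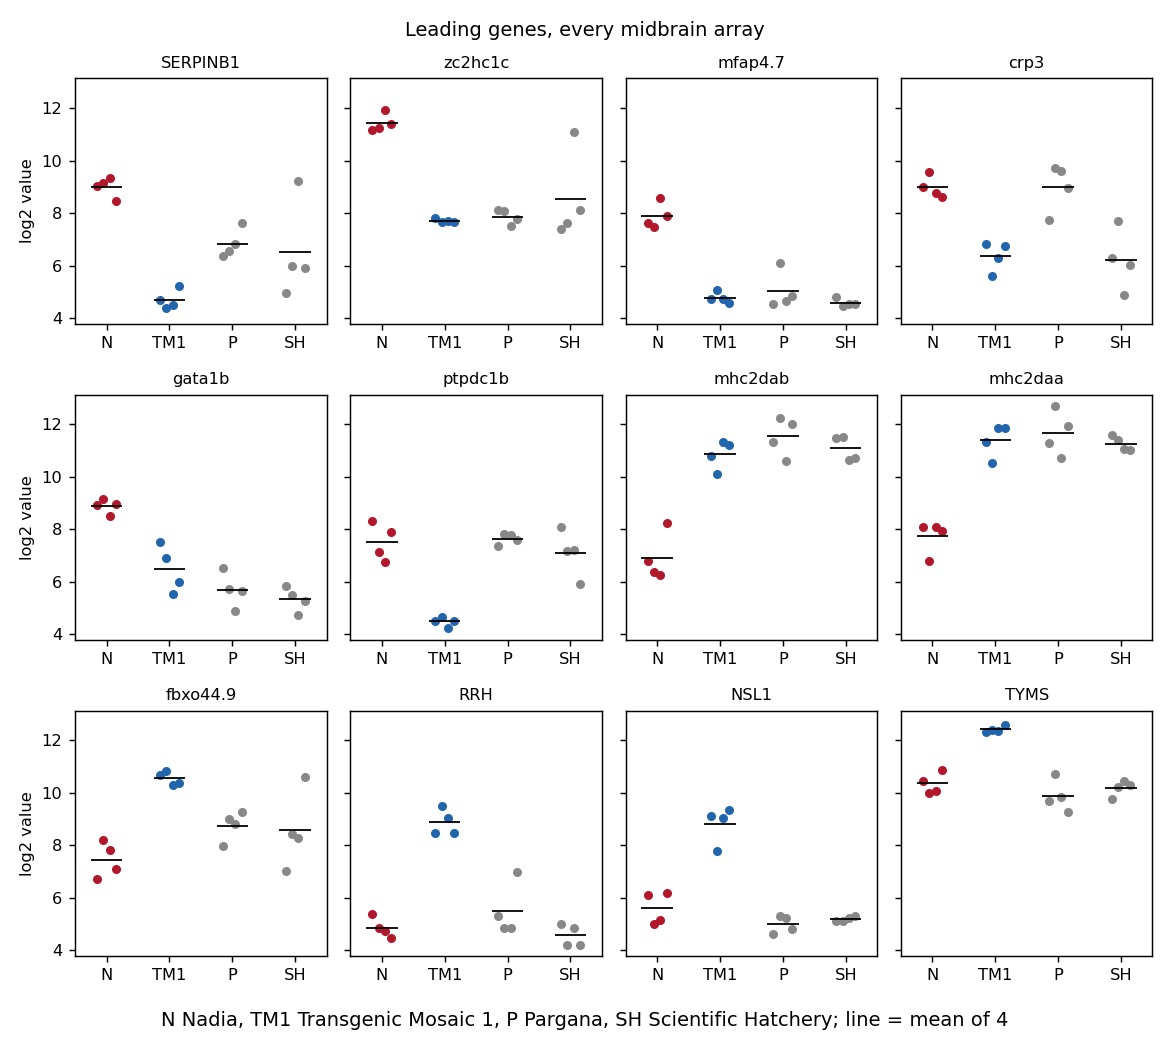
Log2 values of 12 leading genes on every midbrain array, 1 point for each fish, with the mean of 4 as a line; N is Nadia, TM1 Transgenic Mosaic 1, P Pargana and SH Scientific Hatchery. In each panel the 4 Nadia points and the 4 Transgenic Mosaic 1 points do not overlap. For mhc2dab, mhc2daa, mfap4.7, gata1b and, narrowly, zc2hc1c Nadia stands apart from the other 12 arrays. For RRH, NSL1, TYMS and ptpdc1b Transgenic Mosaic 1 does.

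Several of the largest differences outside the immune genes were marked by Transgenic Mosaic 1. Peropsin, RRH (ENSDARG00000039534), an opsin-family protein of the retinal pigment epithelium, read 5.38, 4.85, 4.74 and 4.45 in Nadia, against 8.49, 9.51, 9.05 and 8.47 in Transgenic Mosaic 1, a difference of -4.02 ± 0.26 (limma adjusted p = 0.000783). It averaged 5.49 in Pargana and 4.57 in Scientific Hatchery. The mean of the eye gene list, given above, was highest on a Nadia array. NSL1, a subunit of the kinetochore complex that joins chromosomes to the spindle, was 5.01 to 6.17 in Nadia and 7.78 to 9.37 in Transgenic Mosaic 1, a difference of -3.22 ± 0.39 (limma adjusted p = 0.0122), lost without Transgenic Mosaic 1 M12 (limma adjusted p = 0.0523). Thymidylate synthase, TYMS (ENSDARG00000042894), which makes the thymine nucleotide for DNA synthesis, averaged 10.36 ± 0.41 in Nadia, against 12.42 ± 0.12 in Transgenic Mosaic 1 (SD, n = 4 each). Its highest Nadia value, 10.89, lay below its lowest Transgenic Mosaic 1 value, 12.33, and the difference was -2.06 ± 0.20 (limma adjusted p = 0.00546). It was the only call among the 26 measured cell cycle genes (1.00% of all genes were called), whose median difference was -0.03. The glutamate carboxypeptidase family gene NAALAD2 differed by -2.26 ± 0.23 (limma adjusted p = 0.00596), and ptpdc1b, a protein phosphatase family gene, by 3.04 ± 0.31 (limma adjusted p = 0.00639). The F-box genes fbxo44.8, fbxo44.9 and fbxo44.10, of a family that selects targets of a ubiquitin ligase, were all lower in Nadia. Their differences were -1.77, -3.09 and -1.75, and the levels of such near copies are uncertain. For these genes Transgenic Mosaic 1 did not stand apart from the other populations. fbxo44.9 was 10.31 to 10.84 in Transgenic Mosaic 1, 7.96 to 9.26 in Pargana and 7.04 to 10.60 in Scientific Hatchery. The call on fbxo44.10 was lost with all 16 midbrain arrays (limma adjusted p = 0.164) and with all 31 arrays (limma adjusted p = 0.188).

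In the other direction, zc2hc1c (ENSDARG00000070526), a zinc finger gene, read 11.16, 11.25, 11.93 and 11.39 in Nadia, against 7.81, 7.66, 7.72 and 7.68 in Transgenic Mosaic 1. The difference was 3.72 ± 0.16 (limma adjusted p = 0.000126). Its values were 7.50 to 8.12 in Pargana and ran from 7.39 to 11.08 in Scientific Hatchery, so its highest value there was near the Nadia level. The transcription factor gene gata1b, a relative of the red cell factor gata1, was 8.52 to 9.16 in Nadia and 5.52 to 7.53 in Transgenic Mosaic 1, a 5.29-fold difference (limma adjusted p = 0.0112). Of the 13 measured red blood cell genes, gata1b rose and RHAG, an ammonia channel of red cells, fell by 1.19 on the log2 scale. The others were not called (1.00% of all genes were), and the median difference was 0.01. The call on RHAG was lost in 7 of the 8 fits without 1 array and with no sex term (limma adjusted p = 0.0733). The means of that list were 9.12 to 9.47 in Nadia and 8.84 to 9.45 in Transgenic Mosaic 1. The Fanconi anaemia DNA repair gene fance, the axonemal dynein gene DNAH3 and the retinol carrier gene RBP2 were higher in Nadia by 1.84, 1.64 and 1.73. The call on fance was lost without Transgenic Mosaic 1 M109 (limma adjusted p = 0.0570), and that on DNAH3 in 7 of the 8 fits and with all 16 midbrain arrays (limma adjusted p = 0.0719). That on RBP2 was lost with all 16 midbrain arrays (limma adjusted p = 0.0824) and with all 31 arrays (limma adjusted p = 0.0942).

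Single members of some lists of neural signalling and hormone action were called. Over 796 distinct measured genes in all 31 lists, the immune and other lists above included, 17 were called (2.14%, against 1.00% of all genes), 7 higher and 10 lower in Nadia. The lists were chosen with earlier results of these data known, so nothing is read from the higher share. No call fell in 19 of the lists, and list medians ran from -0.19 to 0.45. Of the 20 acetylcholine genes the nicotinic receptor subunit CHRNB3 fell, by 1.62 on the log2 scale, to 6.82 in Nadia, against 8.44 in Transgenic Mosaic 1. Of the 29 dopamine and noradrenaline genes the beta-adrenergic receptor adrb3b fell by 1.37, and of the 45 neuropeptide receptor genes the nociceptin receptor OPRL1 fell by 0.74. STAR, which brings cholesterol into mitochondria for steroid synthesis, fell by 1.59 on the log2 scale. It read 6.76, 7.24, 6.70 and 6.43 in Nadia, against 8.10, 9.23, 8.01 and 8.16 in Transgenic Mosaic 1 (limma adjusted p = 0.0308), and it was the only call in the stress axis (31 genes) and sex steroid (36) lists. These 4 genes were called in the fit to all 8 arrays and not in 4 to 8 of the 8 fits that left out 1 array, and CHRNB3 was not called with all 31 arrays (limma adjusted p = 0.0521). The smooth muscle actin gene acta2 fell by 0.81 and was the only call of 29 vessel and meningeal genes, lost in 6 of those 8 fits. HSPB2, a small heat shock protein gene, rose by 1.05 among 41 heat shock genes, and was lost in 7 of them, with no sex term (limma adjusted p = 0.149), with another variance model (limma adjusted p = 0.0601) and with all 31 arrays (limma adjusted p = 0.120). The serotonin and histamine, GABAergic, glutamatergic, immediate early, clock and oxidative phosphorylation lists held no call, and in them the serotonin transporter SLC6A4 (-0.62, limma adjusted p = 0.0988) came nearest.

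**Figure D3:**
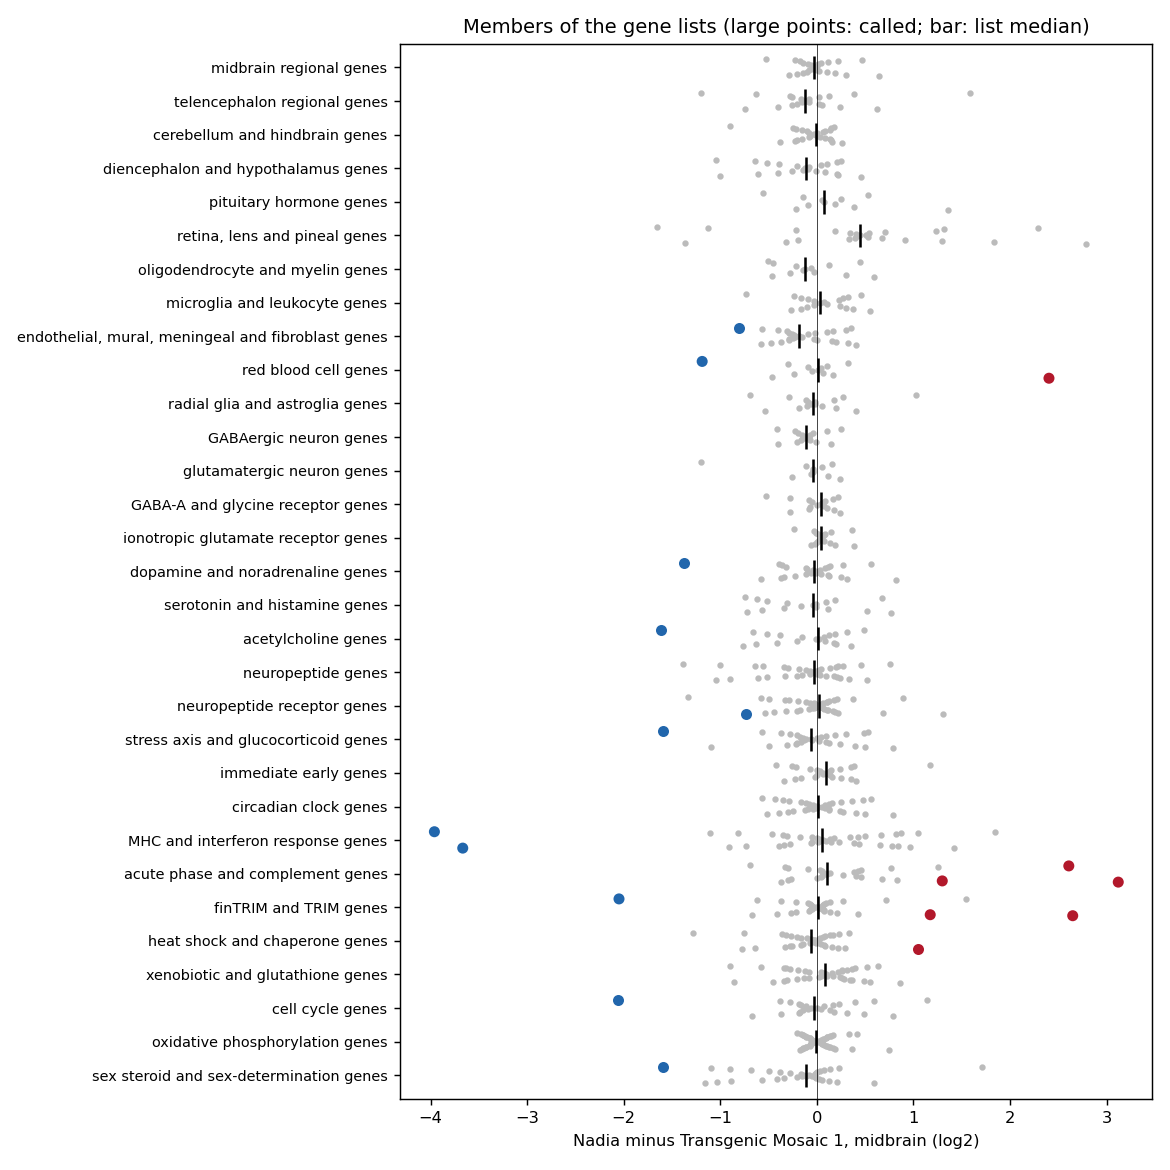
Nadia minus Transgenic Mosaic 1 (log2) for every measured member of the 31 gene lists, 1 list a row; large coloured points are called, red if higher and blue if lower in Nadia, small grey points are not called, and the bar is the list median. The called points are few in every list, and medians run from -0.19 to 0.45.

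To ask whether the differences belonged to the midbrain, the same populations were compared on 8 telencephalon arrays, which carry the same fish numbers. There 124 genes were called (0.792%), 60 higher (0.383%) and 64 lower (0.409%) in Nadia. All 67 genes higher in Nadia midbrain were also higher in its telencephalon, and 88 of the 90 lower genes were lower. The sign was thus kept by 155 of 157 (98.7%), against 69.8% of all genes. In both regions 57 were called in the same direction, 36.3% of the midbrain list and 46.0% of the telencephalon list. Because the arrays carry the same fish numbers and may come from the same fish, this is not a second sample of the populations. mhc2dab differed by -3.85 in telencephalon, RRH by -4.43, zc2hc1c by 4.03 and SERPINB1 by 4.20. Other named genes kept the sign with a different size. In midbrain and telencephalon, ftr57 differed by -2.05 and -0.54, DNAH3 by 1.64 and 0.73, and PTGER2 by -4.29 and -2.98. NSL1 differed more in telencephalon, by -4.38 against -3.22 in midbrain. None of these gaps was called in the test below. The 2 genes that did not keep the sign were sh3bgr, at -0.73 in midbrain and 0.08 in telencephalon, and the endonuclease family gene EEPD1, at -0.75 and 0.56. In a test of the difference between the regions, 19 of the 157 genes (12.1%) had an unadjusted p under 0.05, against 2.86% of all genes. The 157 were chosen by their midbrain difference, and nothing is read from that share. Across the regions 1 gene (0.00639%) was called in this test. The gene si:ch211-161h7.5 differed by -0.19 in midbrain and by -5.38 in telencephalon, a gap of 5.18 ± 0.28 (limma adjusted p = 1.16e-06). It was 4.11 to 5.01 on the Nadia midbrain arrays and 4.68 to 4.89 on Transgenic Mosaic 1 midbrain arrays. In telencephalon it was 4.40 to 4.64 in Nadia, against 9.62 to 10.47 in Transgenic Mosaic 1.

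The other wild and domesticated pair, Pargana and Scientific Hatchery, shares no array with this one. Of the 157 genes, 76 had the same sign there (48.4%), against 49.3% of all genes. In that pair 32 genes were called (0.204%). None of the 157 was called in both pairs in the same direction, and HSPB2 was called in opposite directions. It was higher in Nadia than in Transgenic Mosaic 1, by 1.05, and lower in Pargana than in Scientific Hatchery, a difference of -1.73 ± 0.18 (limma adjusted p = 0.0216). Its means were 6.46 in Pargana and 8.17 in Scientific Hatchery. Over the 16 midbrain arrays, Transgenic Mosaic 1 lay apart from the other 12 for 44 of the 157 genes, Nadia for 30 (19.1%), and Nadia with Pargana apart from both domesticated populations for 4 (2.55%): crp3, znfl2a, MGST2 and mffb. Nadia with Scientific Hatchery, a split that crosses the wild and domesticated labels, lay apart from the other 8 arrays for 3 (1.91%). Over all genes the shares with these splits, in the order given, were 1.03%, 0.786%, 0.147% and 0.204%. The shares among the 157 describe genes that were chosen because Nadia and Transgenic Mosaic 1 differed. Nothing is read from their size against all genes.

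**Figure D4:**
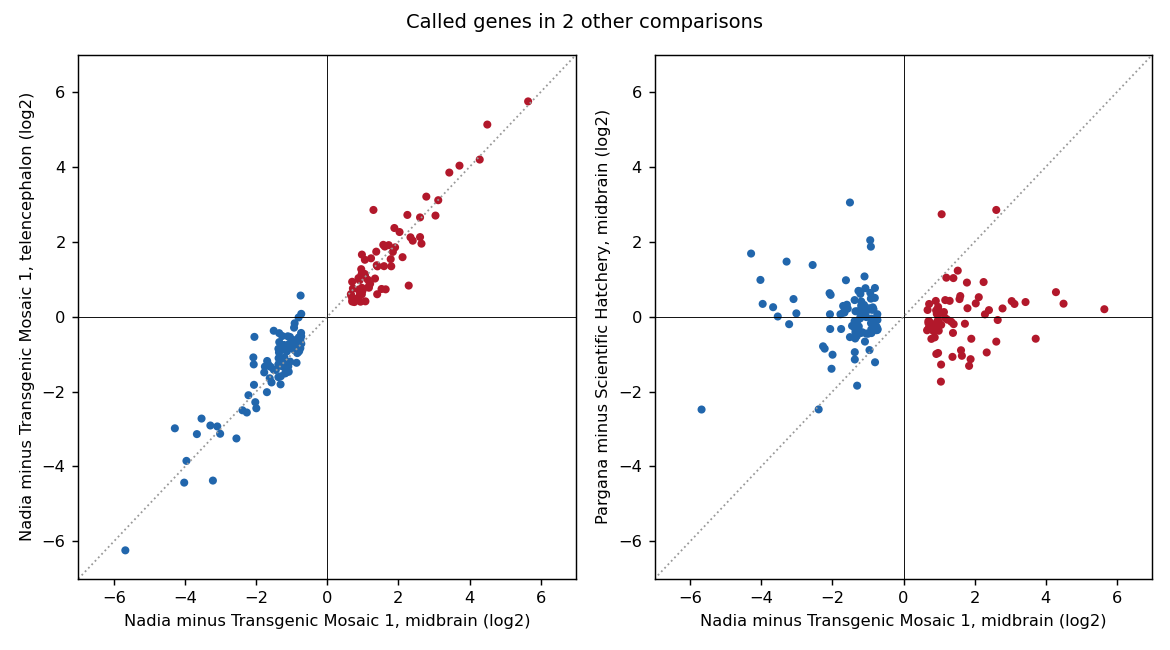
The 157 called genes, with Nadia minus Transgenic Mosaic 1 in midbrain (log2) on the horizontal axes, against the same difference in telencephalon (left) and against Pargana minus Scientific Hatchery in midbrain (right); red genes are higher and blue genes lower in Nadia, and the dotted line marks equal values. In the left panel 155 of 157 points keep their sign, and in the right panel 76 of 157 do.

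To ask whether the population difference was the same in both sexes, an interaction was fitted over the 8 arrays. It called 5 genes (0.0320%), none of them among the 157, and 685 (4.38%) had an unadjusted p under 0.05. With 2 fish of each sex and population, the test rests on few arrays, and leaving out 1 array took the count to between 0 and 7. ENSDARG00000095009 was 13.22 and 12.51 in the Nadia males and 9.04 and 9.66 in the females, against 9.05 and 8.84 in the Transgenic Mosaic 1 males and 12.56 and 13.31 in the females (limma adjusted p = 0.0148). In Pargana it was 12.47 and 12.10 in males and 12.36 and 8.68 in females, and in Scientific Hatchery 13.15 in the male and 9.16, 9.42 and 12.78 in the females, so its high and low levels did not follow sex there. CTH, which makes cysteine from cystathionine, was 4.99 and 5.40 in Nadia males and 7.53 and 7.51 in Nadia females. In Transgenic Mosaic 1 it was 7.67 and 7.70 in males and 6.31 and 6.17 in females (limma adjusted p = 0.0148). CTH did not follow sex in Pargana, at 7.51 and 5.30 in males and 5.97 and 7.45 in females. On the Transgenic Mosaic 1 telencephalon arrays CTH was 8.98 and 8.75 in males and 9.05 and 9.53 in females. ENSDARG00000095735 read 13.56 and 13.72 in the Transgenic Mosaic 1 males, against at most 9.49 in Nadia fish of both sexes. ENSDARG00000078938 read 11.39 and 10.96 in those males, against at most 7.48 in Nadia. The Transgenic Mosaic 1 females lay at the Nadia level for both. No Pargana or Scientific Hatchery midbrain array was high for either. ENSDARG00000095735 reached at most 9.42 in Pargana and 9.34 in Scientific Hatchery, and ENSDARG00000078938 at most 7.28 and 7.17.

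**Figure D5:**
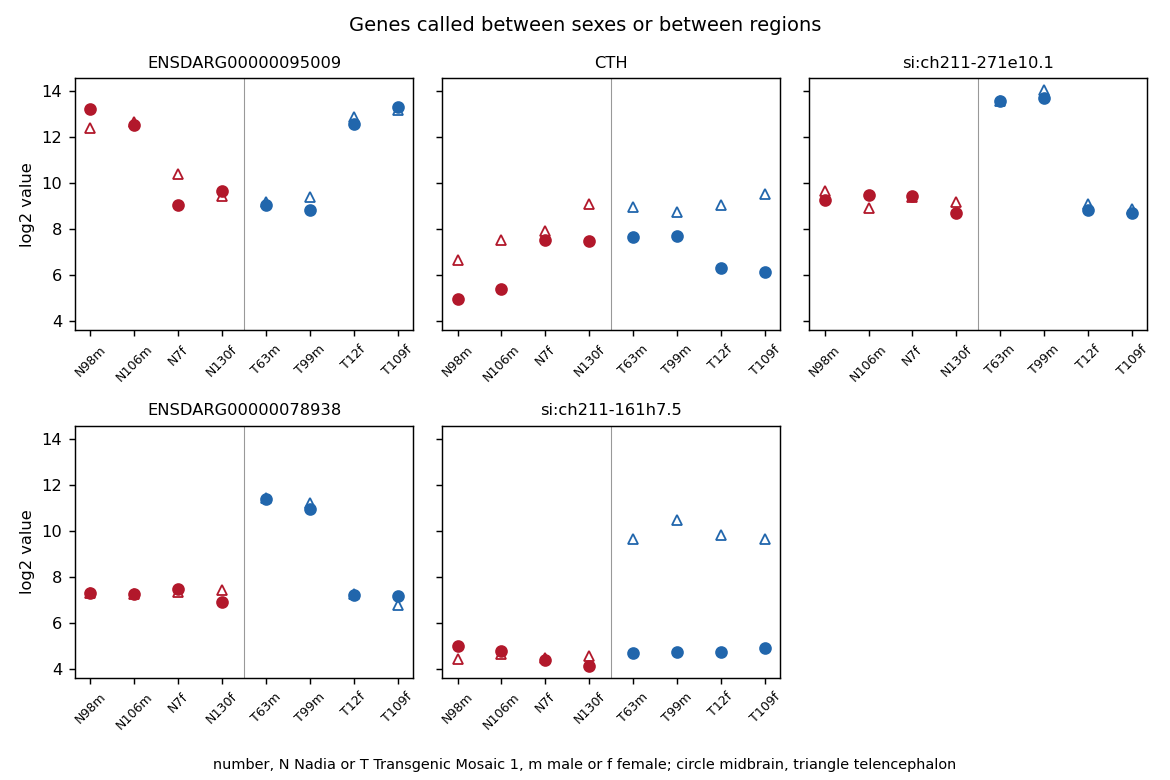
Log2 values by fish number for 4 of the 5 genes called between the sexes and, in the last panel, the gene called between regions; filled circles are midbrain, open triangles telencephalon, N Nadia, T Transgenic Mosaic 1, m male and f female. The same-numbered telencephalon array lies at a similar level to its midbrain array for the sex genes shown except CTH, the top right panel shows ENSDARG00000095735 under its clone name, and si:ch211-161h7.5 is high in the Transgenic Mosaic 1 telencephalon only.

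Some called genes lay near each other in an order of the genes that could be placed. By gene order in RefSeq, matched by symbol and used only for neighbours, 9909 genes had a place, of which 104 were called. Neighbours were counted among these placed genes, and genes without a place may lie between them. Of these, 21 (20.2%) had another called gene within 2 genes on either side, against 3.73% of the genes not called. One run held fbxo44.8, fbxo44.9, cdc42l2 and dnmt3bb.3, all lower in Nadia, and another held fance, si:ch211-163l21.7 and ELAPOR1, all higher. The bitter taste receptor genes tas2r200.1 and tas2r200.2 were both higher in Nadia, by 1.80 and 0.97. Their levels were low: tas2r200.1 averaged 6.12 in Nadia and 4.33 in Transgenic Mosaic 1, and tas2r200.2 averaged 5.27 and 4.30. Whether like-named neighbours share probe signal was not examined. The call on tas2r200.1 was lost in 6 of the 8 fits without 1 array and with no sex term (limma adjusted p = 0.0556), and that on ELAPOR1 without Transgenic Mosaic 1 M12 (limma adjusted p = 0.0515). In this order mhc2daa lay beside SLC7A4, which differed by -0.77. Other called neighbours ran in opposite directions: mffb (-0.90) lay beside ftr01 (1.17), and ssuh2rs1 (-0.81) lay within 2 genes of gata1b, which was higher in Nadia. These runs are a description, and no test was made of them.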

How the data were processed

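The authors deposited log2 expression, 1 value for each gene and array; the submitters' processing notes name RMA and Zv9, and the log base was read from the range. Per the labels' protocols, Trizol RNA of single fish was turned into Cy3 cDNA from random hexamers for NimbleGen arrays of 1 colour. The table gives no background or detection call, so the level below which a signal is background is not known. The number of arrays limits the precision. A value is hybridization to a gene's probes; sequence differences between populations under a probe were not examined here. One row without a gene was left out (0.00639% of rows).

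The 8 midbrain arrays were fitted with population and sex in limma 3.58.1 (R 4.3.3), with Benjamini-Hochberg adjustment over 15648 genes. Interactions with sex and with region, the telencephalon and the Pargana and Scientific Hatchery pair were fitted likewise, and the procedure was tested on simulated data. Symbols came from the reference tables by gene ID: 13251 genes had one, 2397 none, and 1507 share a symbol. Named genes were called, did not overlap between populations and had a symbol other than a clone name: the 15 largest in each direction, plus called members of each list (the 2 smallest p where fewer passed), and genes called by sex, by region or in both pairs. Genes without such a symbol are named only where called by sex or region, beside a named neighbour, or where singled out after their values were seen. Members and lists were chosen with earlier results of these data known. Alternatives changed the arrays fitted, sex term, dim-gene filter, variance model, scaling and thresholds, and left out each array. Same-numbered arrays of the 2 regions deviated together (correlations 0.12 to 0.52), so numbers were taken to pair them, with the pairing from the labels' numbers. Of the 8 numbers 6 correlated best with their own, while Nadia 98 and 106 correlated best with each other. With sex removed too, the correlations were 0.0123 to 0.474. Some items are not reported here.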

Additional observations from a re-analysis of the deposited data

Results flagged for a closer look

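Some values of single fish lay far from the other 3 of their population. Among 140 groups of 4 examined, 6 held such a fish, where chance gives about 1 in 20. In Nadia they were TTLL2 on M130, at 8.20 where the others were 8.66 to 8.73, and mhc2daa on M106, at 6.80 where the others were 7.94 to 8.11. In Transgenic Mosaic 1 they were RHAG on M12, at 7.60 against 8.11 to 8.17, and STAR on M99, at 9.23 against 8.01 to 8.16. Means of 2 lists stood apart too: the clock genes on M63, at 11.38 against 11.95 to 12.03, and the oxidative phosphorylation genes on M12, at 12.64 against 12.75 to 12.77.

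The population difference in males minus that in females was -3.78 for CTH, -3.91 for ENSDARG00000078938, 7.50 for ENSDARG00000095009 and -4.57 for ENSDARG00000095735. The difference in midbrain minus that in telencephalon was 5.18 for si:ch211-161h7.5. Each was called by the test of the difference itself.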

How the results depend on the processing

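The number of called genes depended on the arrays and thresholds used. Against 157 (1.00% of genes tested), it was 274 (1.75%) with all 16 midbrain arrays in the fit, 114 of the 157 among them, and 254 (1.62%) with all 31. It was 33 (0.211%) at an adjusted p under 0.01 and 104 (0.665%) with at least a 2-fold difference, and 127 to 212 under the other settings that kept all 8 arrays. Leaving out 1 array gave 0.281% (44 genes, without Transgenic Mosaic 1 M12) to 0.760% (without M99). The telencephalon count of 124 was 394 with all 31 arrays and 46 to 111 without 1 array, and the Pargana and Scientific Hatchery count of 32 was 139 with 16 midbrain arrays and 4 to 33 without 1. The sex count of 5 was 0 to 7 without 1 array and 6 with another variance model, and the region count of 1 was 1 to 2. The region gene stayed called with the replicate block that pairs the 2 regions (count 1, random or fixed; limma adjusted p = 5.51e-07 and 0.000701), and the block changed no other call. The share of called genes with the same sign in Pargana minus Scientific Hatchery was 45.5% to 56.9% without 1 array, and in telencephalon 97.9% to 100%. Of 39 named genes over 607 gene and setting pairs, 498 kept the call, the rest lost it and 0 changed direction; 14 kept it in every setting run, among them mhc2daa, mhc2dab, SERPINB1, mfap4.7, zc2hc1c, RRH, PTGER2 and TYMS. Of the genes just listed, SERPINB1, mfap4.7 and RRH were removed by the dim-gene filter, so that setting was not run for them. The filter also removed other named genes, among them ptpdc1b, ftr79, ftr01, adrb3b, HSPB2, fance, DNAH3 and RBP2. The cause of the lost calls was not tested. Arrays with no background reading limit what can be said of low levels.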
